A study of Mus musculus with 5 samples.

Results

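NFE2L2, usually called NRF2, is a transcription factor that switches on genes for the handling of reactive oxygen species and electrophiles. The set described here is Nfe2l2 itself with 9 genes known as its antioxidant targets: Slc7a11, Gclc, Gclm and Gsr of glutathione metabolism, Txn1, Txnrd1, Prdx1 and Srxn1 of the thioredoxin system, and the quinone reductase gene Nqo1. Its 10 members were taken by gene symbol from the 51912 rows of the authors' deposited table. The list of symbols was chosen with earlier results of these data known. All 10 were among the 17420 genes with an adjusted p there, so none was lost to a filter on low values.

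RNA sequencing was carried out on C57BL/6 mice (the source label gives C57BL/6J) in a sham group of 2 libraries and a stroke group of 3 libraries. In the stroke group the middle cerebral artery was closed with a coated filament for 30 minutes, animals were kept when cerebral blood flow had dropped by at least 80%, and a motor score was taken at 24 hours. Both groups were anesthetized with ketamine and xylazine per the labels' protocols, and the labels name no genotype other than the strain. The tissue, the time of sampling, the age and sex of the animals and whether each library came from 1 animal are not given in the sources at hand, so p-values measure the spread between these libraries, which may be technical. The series concerns TRIM9 and inflammation after ischemic stroke.

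The deposited table gives 1 mean, 1 fold change and 1 test per gene and no values per library. For all 10 members 1 set of whole reads alone gave back the deposited mean, fold change and standard error, and these reads are printed below as normalized counts, that is, reads divided by the library's size factor. Size factors were 1.16, 1.13 and 1.12 in the stroke libraries, numbered 1 to 3 in that order, and 0.945 and 0.734 in the sham libraries, called the deeper and the shallower. The libraries could not be matched to the replicate numbers of the labels. Markers of neurons and astrocytes were abundant, with largest means of 65803 and 102016 normalized counts in the authors' deposited table. The deeper sham library stood apart in markers of other tissue: the 5 red blood cell markers summed to 2801 normalized counts there, compared with 474 in the shallower sham and 67.2 to 229.8 in the stroke libraries, and 4 choroid plexus and ependymal markers summed to 1278, compared with 214 and 262 to 351. Results for the members are given with and without that library where its removal turned a direction.

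Under resting conditions the adaptor KEAP1 holds NRF2 in the cytosol and hands it to a CUL3 ubiquitin ligase for degradation. Oxidants and electrophiles modify cysteines of KEAP1, NRF2 then escapes, pairs with a small MAF protein and binds antioxidant response elements in DNA. Its control is therefore largely at the level of protein, and its own mRNA need not follow its activity. The targets supply reducing power along a pair of parallel routes, glutathione and thioredoxin, and in brain NRF2 target genes are known to be more active in astrocytes and other glia than in neurons.

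The promoters of the members were searched for the response element. Genes are recognised as NRF2 targets partly through such elements, so the counts describe the members and are not independent of their choice. RefSeq promoter windows (GRCm38.p6, 250 bases before to 50 after the start site) were at hand for 8 of the 10 members, all but Gclc and Gsr, in 10 windows. The core of the element, TGACNNNGC on either strand, was in 5 of these 10 windows, 1 each in Nfe2l2, Gclm, Txnrd1, Prdx1 and Srxn1, compared with 12.4% of all 32851 windows in the table. The AP-1 site TGANTCA, which the core can contain, was in the windows of Prdx1 and Srxn1, compared with 7.81% of all windows. An AP-1 site followed by GC, TGANTCAGC, which holds the core where its N is C, was also in these windows and in 1.19% of all windows. Neither motif was in the windows of Slc7a11, Txn1 and Nqo1, which says only that these letters are not in those 300 bases. The upstream matches are shown because members with different values share them, with the matched bases in capitals and the strand of the gene read 5′ to 3′. A further match to the core in Srxn1 lies 28 bases after the start site and is not shown.
Nfe2l2, chr2:75704875-75704913, minus strand: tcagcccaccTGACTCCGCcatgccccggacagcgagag
Gclm, chr3:122245403-122245451, plus strand: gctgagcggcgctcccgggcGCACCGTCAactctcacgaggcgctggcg
Txnrd1, chr10:82859094-82859142, plus strand: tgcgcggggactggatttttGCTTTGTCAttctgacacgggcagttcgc
Prdx1, chr4:116685349-116685494, plus strand: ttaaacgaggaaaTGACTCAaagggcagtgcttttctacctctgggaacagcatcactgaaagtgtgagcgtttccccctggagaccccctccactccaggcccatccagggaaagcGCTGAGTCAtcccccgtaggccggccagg
Srxn1, chr2:152105402-152105505, plus strand: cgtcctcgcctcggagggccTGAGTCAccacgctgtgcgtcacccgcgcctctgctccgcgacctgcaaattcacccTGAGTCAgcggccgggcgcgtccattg
The core was on the strand opposite to the gene in Gclm, Txnrd1 and Prdx1, and on the strand of the gene in Nfe2l2. In Prdx1 it shares its bases with an AP-1 site, and a second AP-1 site lies further upstream. In Srxn1 both upstream matches are AP-1 sites, and the one nearer the start site is followed by GC and so fits the longer form without holding the core.

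No member of the set passed the test after stroke. In the authors' deposited table, 0 of 10 members had an adjusted p below 0.05 in the DESeq2 Wald test, where 1.56% of the 17420 tested genes did. None of the 10 had an unadjusted p below 0.05 either, compared with 10.5% of tested genes. Of the deposited fold changes, which are stroke over sham throughout, 8 were positive and 2 negative, where 47.2% of all tested genes were positive. Their median was 0.105 on the log2 scale, compared with -0.025 over all tested genes. Without the deeper sham library the ratios of mean normalized counts were positive for 5 members and negative for 5, with a median of -0.013, and without the shallower one the median was 0.318. In refits of a negative binomial Wald test on the recovered reads without each library in turn, 0 of 10 members were called, and the smallest p was 0.0349, for Slc7a11 without stroke library 1. The values ran from -0.57 for Nqo1 to 0.73 for Slc7a11. With 2 libraries against 3, the standard errors of 0.21 to 0.45 leave room for changes of some size, so the interval is given for each gene. In bulk RNA a change in the number of cells of a type and a change in RNA per cell cannot be told apart.

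**Figure D1:**
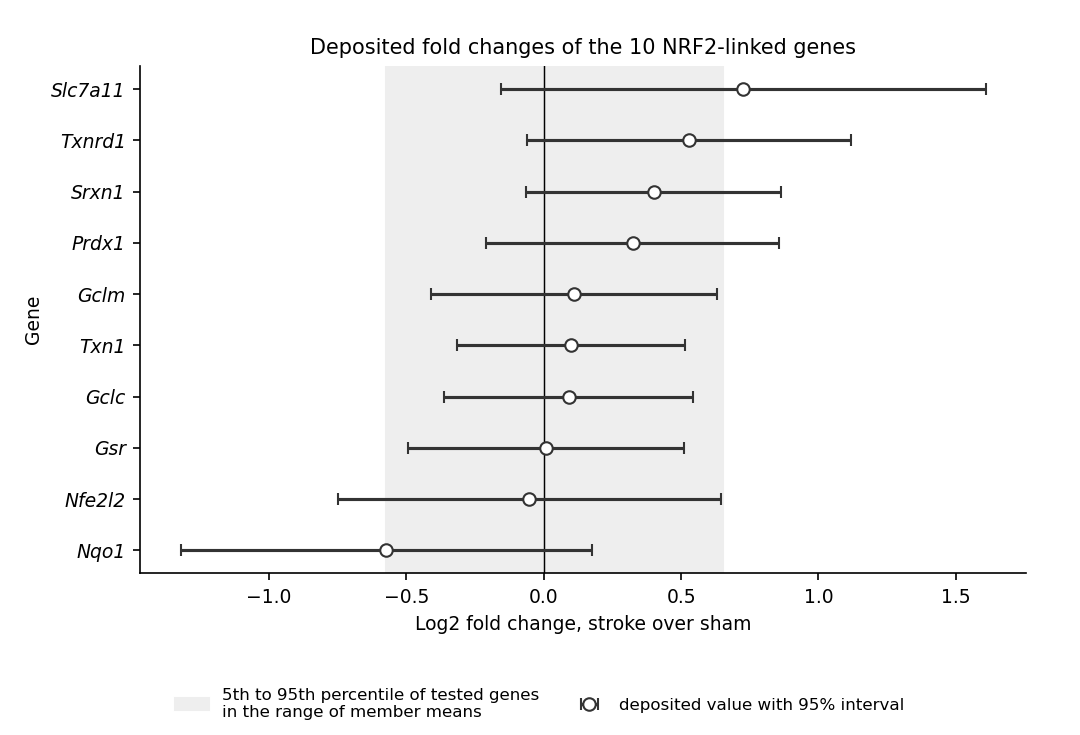
Deposited log2 fold changes, stroke over sham (horizontal axis) for the 10 members (vertical axis, ordered by value), with bars for the 95% interval. The shaded band holds the middle of the fold changes of tested genes whose mean lies in the range of the members' means, from the lower to the upper 5% limit. Every interval crosses 0, and Slc7a11 alone has its point above the band.

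Nfe2l2, the regulator of the set, showed no difference between the groups beyond the spread of its libraries. Nfe2l2 (ENSMUSG00000015839, GRCm38, chr2:75675513-75704641, minus strand) had, as normalized counts, 249.8, 431 and 520.5 in stroke libraries 1, 2 and 3, and 404 and 426 in the deeper and shallower sham. Stroke library 1 was thus the lowest of all 5 and stroke library 3 the highest, with the sham pair close together between them. The spread within stroke, 401 ± 138 (SD, n = 3), exceeded the distance to the sham mean of 415. The authors' deposited table gives a log2 fold change of -0.05 (standard error 0.355, 95% interval -0.75 to 0.64, adjusted p-value 0.991). In the ratio of mean normalized counts, from which 1 library at a time was left out for each of the members, the sign turned without stroke library 1, to 0.20.

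Among the glutathione genes the cystine importer had the widest spread within stroke, and the fold changes of the synthesis and recycling enzymes were small and turned sign when 1 library was left out. Slc7a11 (ENSMUSG00000027737, chr3:49892526-50443614, minus strand) encodes xCT, the transport subunit that brings in cystine, the raw material of glutathione, in exchange for glutamate. Its normalized counts were 1207, 1959 and 3871 in stroke libraries 1 to 3, and 1144 (deeper) and 1691 (shallower) in sham. Stroke library 1 lay between the sham libraries, stroke library 2 just above them, and stroke library 3 at 2.73 times the sham mean. The coefficient of variation within stroke was 58.5%, the largest of the 10 members. In the authors' deposited table the log2 fold change was 0.73 (standard error 0.45, 95% interval -0.16 to 1.61, adjusted p-value 0.64), the largest of the set. It fell to 0.16 without stroke library 3 and was 1.04 without stroke library 1, so 1 library set most of its size.

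Gclc and Gclm encode the catalytic and the modifier subunit of glutamate-cysteine ligase, the rate-limiting enzyme of glutathione synthesis. Gclc (ENSMUSG00000032350, chr9:77754535-77794485, plus strand) had 2114, 2046 and 1919 normalized counts in stroke, compared with 1589 (deeper) and 2219.5 (shallower) in sham. Its stroke libraries were the most even of the set, at 2026 ± 99.1 (SD, n = 3), and all lay between the sham pair. Gclm (ENSMUSG00000028124, chr3:122245557-122270732, plus strand) had 1621, 1761 and 2424 in stroke, compared with 1593 and 1992. Only stroke library 3 stood above both sham libraries, and none stood below both. The authors' deposited table gives log2 fold changes of 0.09 (standard error 0.23, 95% interval -0.36 to 0.54) for Gclc and 0.11 (standard error 0.27, 95% interval -0.41 to 0.63) for Gclm. Both turned negative without the deeper sham library, to -0.13 and -0.04, and Gclm also without stroke library 3, to -0.08. Exons of Gclm overlap those of Gm17494 on the opposite strand and Gm6061 on the same strand over 296 and 244 bases, and how reads there were assigned is not given in the sources at hand.

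Gsr (ENSMUSG00000031584, chr8:33652523-33698163, plus strand) encodes glutathione reductase, which turns oxidized glutathione back with NADPH. It had, as normalized counts, 726, 726 and 855.5 in stroke, within the sham values of 631 and 899. Its deposited log2 fold change was the nearest to 0 of the set, at 0.01 (standard error 0.26, 95% interval -0.49 to 0.51, adjusted p-value 0.999) according to the authors' deposited table. The sign depended on the setting and was negative without the deeper sham library (-0.23), without stroke library 3 (-0.08) and when fold changes were centred on the median of abundant genes (-0.015).

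In the thioredoxin system none of 4 genes was called, and in Txnrd1 and Srxn1 the groups did not overlap, which was also so in this direction for 14.0% of the comparison genes described below. Txn1 (ENSMUSG00000028367, chr4:57943373-57956411, minus strand) encodes thioredoxin, the small protein that passes electrons to peroxiredoxins. It had 758, 842.5 and 889.6 normalized counts in stroke, compared with 737 and 813 in sham, and stroke library 1 fell between the sham pair. The log2 fold change in the authors' deposited table was 0.10 with the smallest standard error of the set (standard error 0.21, 95% interval -0.315 to 0.51, adjusted p-value 0.961).

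Txnrd1 (ENSMUSG00000020250, chr10:82833951-82897712, plus strand) encodes the cytosolic selenoenzyme that reduces thioredoxin with NADPH. Its normalized counts were 1549.7, 1598 and 2649.9 in stroke, compared with 1373 and 1307 in the deeper and shallower sham. The groups did not overlap, though stroke libraries 1 and 2 were only 1.16 and 1.19 times the sham mean and stroke library 3 was 1.98 times. In the authors' deposited table the log2 fold change was 0.53 (standard error 0.30, 95% interval -0.06 to 1.12) with the smallest p of the set (p = 0.0786, adjusted p-value 0.57). Without stroke library 3 it was 0.23.

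Prdx1 (ENSMUSG00000028691, chr4:116685544-116700822, plus strand) encodes a peroxiredoxin, which reduces hydrogen peroxide and is recharged by thioredoxin. It had 1739, 1866 and 2042 normalized counts in stroke, and the sham libraries were far apart, at 1147 in the deeper and 1863 in the shallower. Stroke library 1 lay below the shallower sham and stroke library 2 was level with it. The log2 fold change in the authors' deposited table was 0.32 (standard error 0.27, 95% interval -0.21 to 0.86, adjusted p-value 0.811). It was 0.71 without the shallower sham library and 0.015 without the deeper one, so the choice of sham library decided its size. A total of 3 near-identical copies of Prdx1 held 0.132% of its mean in the same table.

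Srxn1 (ENSMUSG00000032802, chr2:152105516-152111376, plus strand) encodes sulfiredoxin, which repairs peroxiredoxins that have been overoxidized. Its normalized counts were 2558, 3234 and 3729 in stroke, compared with 2445 and 2367 in sham. All stroke libraries were above both sham libraries, stroke library 1 by little, and the sham pair was close, with a ratio of shallower to deeper of 0.968. The log2 fold change in the authors' deposited table was 0.40 (standard error 0.24, 95% interval -0.06 to 0.86, adjusted p-value 0.599). Leaving out 1 library at a time gave 0.27 to 0.53.

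Nqo1 had the lowest fold change of the set. The gene (ENSMUSG00000003849, chr8:107388225-107403206, minus strand) encodes a quinone reductase that is often used as a readout of NRF2 activity. It was the least abundant member, with 96.8, 95.5 and 62.7 normalized counts in stroke, compared with 119.6 and 133.5 in sham, from 70 to 113 reads per library. All 3 stroke libraries were below both sham libraries, and stroke library 3, where most other members were highest, was the lowest of all. Its log2 fold change in the authors' deposited table was -0.57 (standard error 0.38, 95% interval -1.32 to 0.18, adjusted p-value 0.703). It stayed negative without any 1 library, from -0.68 to -0.40.

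**Figure D2:**
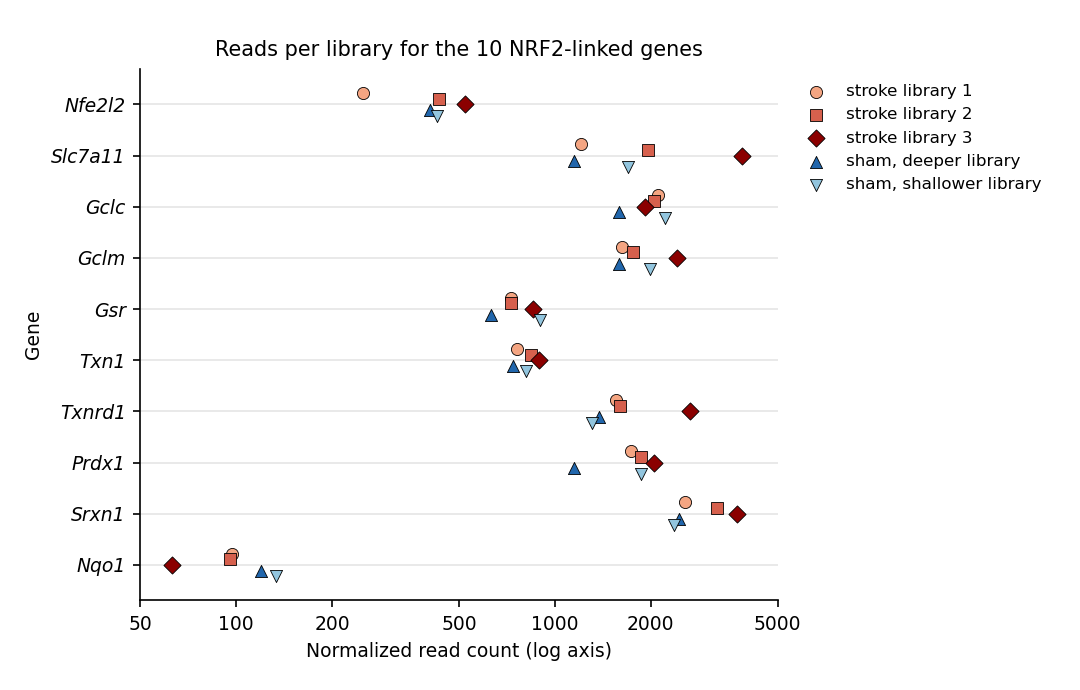
Normalized read count (horizontal log axis) of each of the 10 members (vertical axis) in every library, with 1 point per library and no averaging. Txnrd1 and Srxn1 have all stroke points to the right of both sham points, Nqo1 has all to the left, and the point of stroke library 3 is the rightmost in 7 rows.

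Counted over the set, 2 of 10 members (Txnrd1 and Srxn1) had all stroke libraries above both sham libraries, and 1 of 10 (Nqo1) had all below. For comparison, reads were recovered in the same way for 394 of 400 genes spaced evenly over the tested genes in the members' range of means, which was 102 to 2867. In that sample 14.0% of genes had all stroke libraries above and 11.2% had all below, so the members' counts of 2 and 1 are near those shares. The other 7 members had overlapping groups.

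Among the members 1 library stood out. Stroke library 3 was the highest of the 5 libraries for 7 of 10 members (Nfe2l2, Slc7a11, Gclm, Txn1, Txnrd1, Prdx1 and Srxn1), compared with 12.7% of the sample. The shallower sham library was the highest for the other 3 (Gclc, Gsr and Nqo1), compared with 31.0%, and the deeper sham for none, compared with 28.7%. Stroke library 3 exceeded the mean of stroke libraries 1 and 2 by more than 1.5 times in 3 members, Nfe2l2 (1.53 times), Slc7a11 (2.44 times) and Txnrd1 (1.68 times), where 1.78% of the sample did. For Nqo1 the same ratio was 0.652. The median over members of the log2 ratio to the sham mean was -0.05, 0.11 and 0.38 in stroke libraries 1, 2 and 3. This pattern was noticed after the values were seen, it rests on 1 library, and no test was made of it. The size factor of stroke library 3 was close to those of the other stroke libraries. Its 6 microglia markers summed to 6023 normalized counts, compared with 6456 and 7358 in the other stroke libraries, and its 6 endothelial markers to 7655, compared with 8253 and 10689. Single microglia markers went opposite ways there: Cx3cr1 was at 1165, compared with 404 and 545, and P2ry12 at 241, compared with 439 and 507. The 5 fibroblast markers summed to 3183 in stroke library 3, compared with 2428 and 2835, and the 5 mural cell markers to 3590, compared with 4400 and 4760. Mural cell markers also went opposite ways there: Rgs5 was at 2136, compared with 3069 and 3398, and Pdgfrb at 752.5, compared with 678.5 and 610. So did endothelial markers: Slc2a1 was at 2767, compared with 3992 and 4707, and Cldn5 at 662.9, compared with 337.1 and 433.2. Of 7 astrocyte markers, 3 had recovered reads and summed to 5075 there, compared with 4314 and 5637. The part of cell composition in the pattern was not tested.

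The sham libraries also differed for these genes. The shallower exceeded the deeper in 8 of 10 members, with a median ratio of 1.18, where 194 of the 394 sampled genes did so, with a median ratio of 0.991. The deeper sham library was the lowest of all 5 for 6 members (Slc7a11, Gclc, Gclm, Gsr, Txn1 and Prdx1). This library also held the most red blood cell and choroid plexus RNA, and the part of that RNA in the members' values was not tested.

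**Figure D3:**
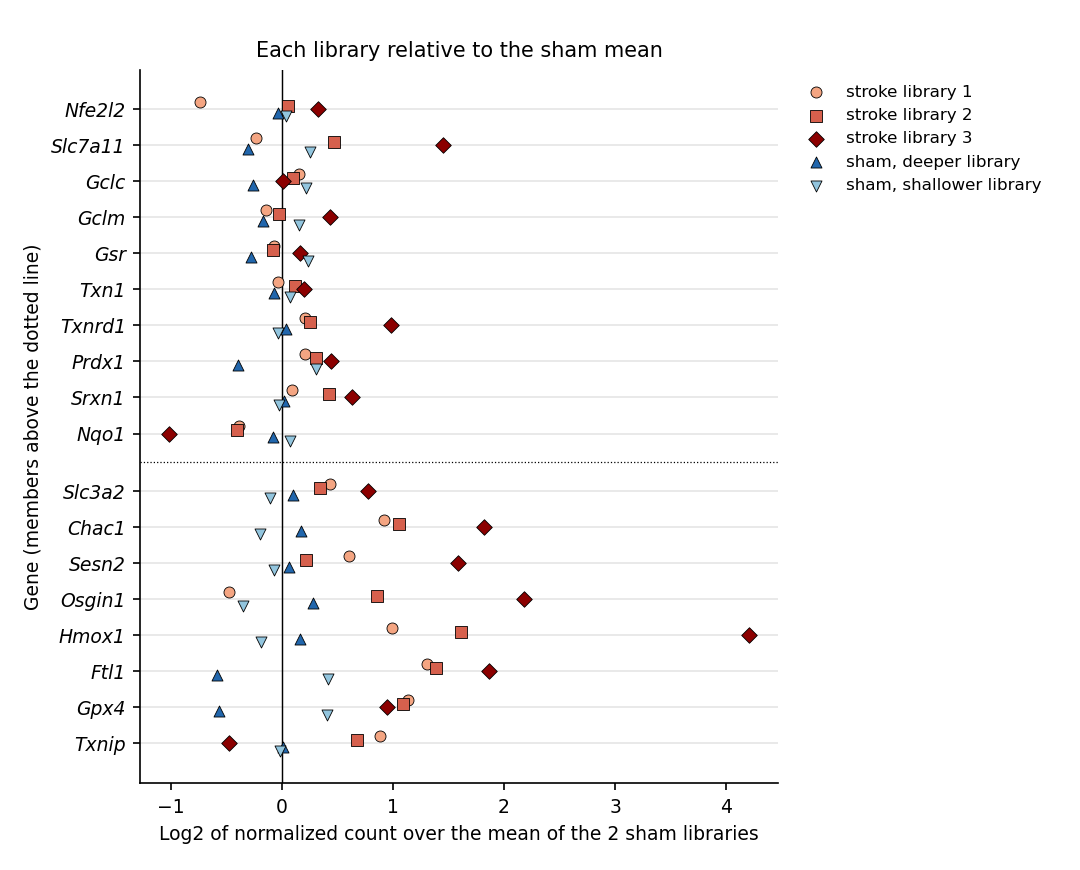
Log2 ratio of each library's normalized count to the mean of the sham libraries (horizontal axis) for the 10 members above the dotted line and 8 companion genes below it (vertical axis). The sham mean is at 0. The point of stroke library 3 lies well to the right of the others for Slc7a11, Txnrd1, Chac1, Sesn2, Osgin1 and Hmox1. It lies to the left of all others for Nqo1 and Txnip.

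Set against length, the members covered a wide range of levels. Length was the union of all annotated exons of a gene, so the order depends also on the annotation. Normalized counts per kilobase of exon, averaged over the 5 libraries, were 1017 for Srxn1, 769 for Txn1, 569 for Prdx1, 525 for Gclc, 298 for Gclm, 279 for Gsr, 239 for Txnrd1, 142 for Slc7a11, 107 for Nfe2l2 and 65.4 for Nqo1. The ranges over libraries of neighbours in this order overlapped except between Txn1 and Prdx1 and between Gclc and Gclm. The level per kilobase of Slc7a11 ran from 82.2 to 278 over the libraries, so in stroke library 3 it overlapped the ranges of Txnrd1, Gsr and Gclm. Thus the thioredoxin carrier, the peroxiredoxin and its repair enzyme were at the top of the order per kilobase, and the regulator and Nqo1 at the bottom.

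Of 104 further genes of the pathway, 99 were measured, and 3 of them were called higher (Chac1, Gpx4 and Ftl1), 0 lower and 96 not called in the authors' deposited table, compared with 0.775% of tested genes called higher and 0.786% lower. Gpx2, Gstm3, Gstp2, Gsto2 and Mgst2 had no adjusted p there. The median log2 fold change of the 99 was 0.05, with 55 positive and 44 negative, where 47.2% of all tested genes were positive. Reads per library were recovered for 98 of the 104, all but 6 genes of high mean that were not tried (Nfe2l1, Cul3, Sqstm1, Sesn3, Fth1 and Sod2). The 3 calls were near the threshold for Chac1 and Gpx4: with adjustment over every gene with a p-value, or over genes with a mean of at least 132 normalized counts, Ftl1 alone was called, and against a fold of 1.5 none was. In the refits without 1 stroke library, Chac1 lost its call without stroke library 3, and Gpx4 without each stroke library in turn. Fewer libraries also widen the standard error, so a call can be lost with no smaller fold change. Refits without a sham library leave 1 sham library, so the number of calls is not given for them. Without the deeper sham library the refitted log2 fold changes were 1.52 for Chac1, 0.655 for Gpx4 and 1.13 for Ftl1. Over all libraries they were 1.32, 1.06 and 1.54 in that order. All stroke libraries were above both sham libraries in 17 of the 98 genes and below in 8, compared with 14.0% and 11.2% of the sample. The sets are unlike: the 98 include the genes without an adjusted p, and Gpx2 and Gstp2 are among the 17. The sample held only genes with means of 102 to 2867. Unlike among the members, the deeper sham library was the highest of all 5 for 41 of these 98, and stroke library 3 for 18, though this difference between the lists was not tested.

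Regulators of NRF2 were uncalled, and all 10 had positive fold changes with a median of 0.16 on the log2 scale in the authors' deposited table. Over all tested genes 47.2% were positive, and 53.7% of those with a mean of at least 132 normalized counts, which all 10 had. The 10 values ran from 0.035 to 1.193, with a median standard error of 0.263. Maff, a small MAF partner, was closest to a call, with a log2 fold change of 1.19 (standard error 0.36, adjusted p-value 0.0549) in that table. Its normalized counts were 164, 255 and 180.1 in stroke, compared with 95.3 and 79.0 in sham, with no overlap. Sqstm1, which encodes the autophagy receptor p62 that binds KEAP1, and Nfe2l1, a relative of Nfe2l2, had log2 fold changes of 0.17 (standard error 0.185) and 0.15 (standard error 0.20) in the authors' deposited table. Keap1 and Cul3, the pair that marks NRF2 for degradation, had 0.04 (standard error 0.23) and 0.18 (standard error 0.275) there. Keap1 had 1711, 1570 and 1625 normalized counts in stroke, compared with 1853 (deeper) and 1324 (shallower) in sham. Its direction thus depended on the sham library.

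The 19 genes of glutathione synthesis, turnover and glutaredoxins had 9 positive and 10 negative fold changes. Among them Chac1, which degrades glutathione, was called higher and none lower. Chac1 had, as normalized counts, 222, 243 and 414 in stroke, compared with 132 and 102 in sham, and a log2 fold change of 1.32 (standard error 0.39, adjusted p-value 0.0437) according to the authors' deposited table. Without stroke library 3 the log2 ratio was 0.99, and the call was lost in the refit. Without the deeper sham library the refitted log2 fold change was 1.52, and without the shallower one 1.15. Slc3a2, the heavy chain that pairs with Slc7a11 and with other transporters, had 2984, 2810.3 and 3794 in stroke, compared with 2371 and 2062 in sham. Every stroke library exceeded both sham libraries, and it was highest in stroke library 3, as Slc7a11 was, with a log2 fold change of 0.53 (standard error 0.23, adjusted p-value 0.325) according to the authors' deposited table. Ggt7, of the gamma-glutamyltransferase family, had -0.16 (standard error 0.22) there.

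Glutathione peroxidases and transferases had 18 negative and 5 positive fold changes among 23 measured, a median of -0.23 on the log2 scale, with Gpx4 alone called higher and none lower. Gpx4, which reduces lipid peroxides and is known as a brake on ferroptosis, had 2029, 1974 and 1778 normalized counts in stroke, compared with 627 (deeper) and 1224 (shallower) in sham. Its log2 fold change was 1.06 (standard error 0.31, adjusted p-value 0.0481) according to the authors' deposited table, and the log2 ratio was 0.655 without the deeper sham library and 1.62 without the shallower one. In refits its call was lost without stroke library 1, 2 or 3, where the log2 fold change was 1.02, 1.04 and 1.115. The standard error was then 0.344, compared with 0.314 over all libraries, so the fold change itself moved little. The transferases Gstm1, Gstm5 and Gsta4 had log2 fold changes of -0.21 (standard error 0.27), -0.20 (standard error 0.22) and -0.46 (standard error 0.25) in the authors' deposited table. The deeper sham library was the highest of the 5 for 19 of the 28 genes of this group, among them Gstm3, Gsto2 and Mgst2, which had no adjusted p.

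Thioredoxins, peroxiredoxins, sestrins and methionine sulfoxide reductases had 14 positive and 5 negative fold changes among 19, a median of 0.115, and no call. Sesn2, a stress-inducible sestrin, had, as normalized counts, 577, 440.2 and 1137 in stroke, compared with 397 and 361 in sham, again highest in stroke library 3, with a log2 fold change of 0.92 (standard error 0.41, adjusted p-value 0.349) according to the authors' deposited table. Sesn3 and Prdx6 had 0.06 (standard error 0.25) and 0.20 (standard error 0.24) there. Txnip, the inhibitor of thioredoxin, was chosen after its values were seen: it had 1477 and 1277 in stroke libraries 1 and 2 but 577 in stroke library 3, compared with 809 and 793 in sham.

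The 24 heme, iron, NADPH and detoxification genes had 15 positive and 9 negative fold changes. Among them Ftl1, the ferritin light chain and a known NRF2 target, was called higher and none lower. It had 1616, 1708 and 2374 normalized counts in stroke, compared with 436 (deeper) and 868 (shallower) in sham, and a log2 fold change of 1.54 (standard error 0.35, adjusted p-value 0.0024) according to the authors' deposited table. The log2 ratio was 1.13 without the deeper sham library and 2.12 without the shallower one, and in the refits the call was lost without the deeper sham library alone. Of the 5 mural cell markers, Acta2 and Tagln were called higher in the same comparison, and Pdgfrb, Rgs5 and Kcnj8 were not called. The groups overlapped in Pdgfrb and Rgs5, and in Kcnj8 all stroke libraries were above both sham libraries. Acta2 had 345, 363 and 388 in stroke, compared with 104 (deeper) and 191 (shallower) in sham, so that its lowest value, like those of Ftl1 and Gpx4, was in the deeper sham library. The 5 red blood cell markers and the choroid plexus markers Ttr and Folr1 were called lower, and the part of any of these cells in the calls for Ftl1 and Gpx4 was not tested. A total of 7 near-identical copies held 0.369% of its mean. Hmox1, heme oxygenase-1, which NRF2 and heme both induce, had 188, 288 and 1741 in stroke, compared with 106 and 83.1 in sham. The groups did not overlap, but stroke library 3 was 7.30 times the mean of stroke libraries 1 and 2, and with a log2 fold change of 2.97 (standard error 1.19, adjusted p-value 0.248) according to the authors' deposited table it was not called. The log2 ratio was 1.335 without stroke library 3. Fth1, the ferritin heavy chain, and Tkt, transketolase, had 0.08 (standard error 0.34) and 0.30 (standard error 0.28) there. Of superoxide dismutases and catalase none of 4 was called, and Sod1 and Sod2 had 0.305 (standard error 0.22) and -0.23 (standard error 0.29) in the authors' deposited table.

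**Figure D4:**
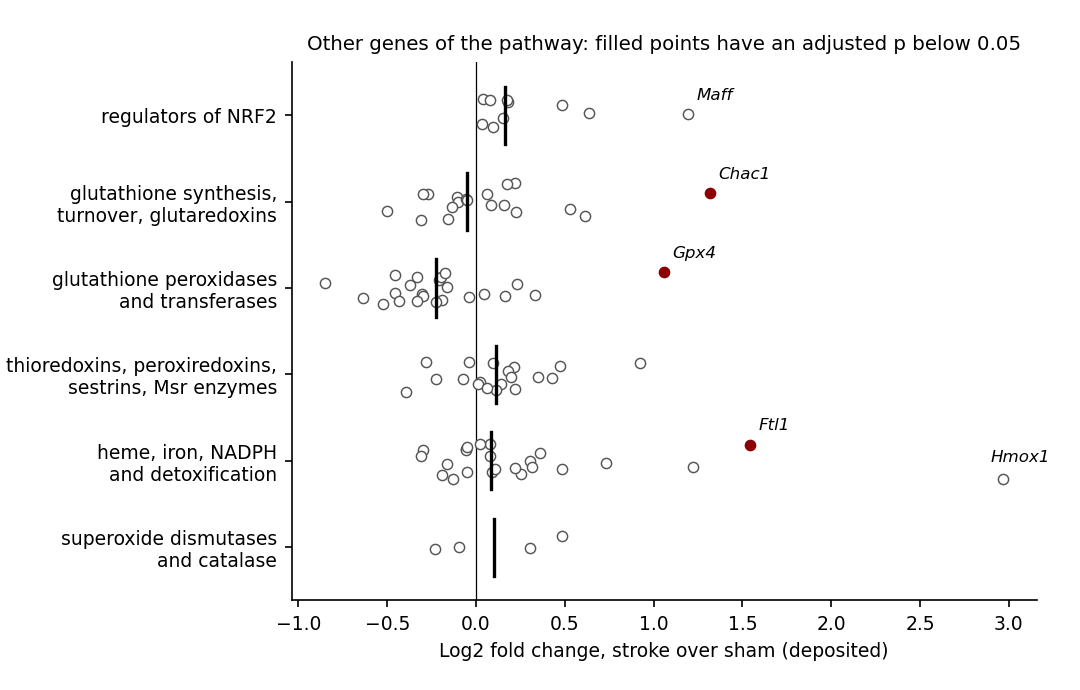
Deposited log2 fold changes, stroke over sham (horizontal axis) for the 99 measured companion genes in 6 groups (vertical axis), where each point is a gene, filled points have an adjusted p below 0.05 and black bars are group medians. The filled points are Chac1, Gpx4 and Ftl1, and the group medians run from -0.23 for peroxidases and transferases to 0.16 for regulators.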

How the data were processed

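Per the submitters' processing notes, reads were processed with FastQC, STAR 2.5.2b, featureCounts 1.5.1 and DESeq2 1.14.1 on GRCm38, and the KAPA kit for mRNA was a stranded one per the labels' protocols. The annotation release and strand setting are not given in the sources at hand. The authors' deposited table holds per gene, per the file headers, the mean normalized signal, a log2 fold change and its standard error, the Wald statistic (a score), a p-value and its adjusted p-value. Genes were called below an adjusted p of 0.05. The numerator is not named. Among genes with a single read, 5 values of the mean occurred, of which 3 had positive fold changes, so positive was read as higher in stroke. Total reads per library are not given, and the means summed to 26479768.

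Whole reads per library were sought with numba 0.67.0, numpy 2.4.6 and scipy 1.17.1 in Python 3.11.15. Reads were kept for a gene where no other 5 counts gave the mean, the fold change (tolerance 1.5e-09) and a dispersion that met the trend and prior of the authors' DESeq2 fit (tolerance 0.005). On simulated data for this comparison 60 of 60 genes were recovered rightly, and of 100 genes with a shifted mean 0 were accepted. Each library was left out in turn from the ratio of mean normalized counts, with no test. As an alternative chosen after seeing the data, a negative binomial Wald test was refitted on the recovered reads without each library, with the dispersion held at its value over all libraries, and called at or below the largest p-value of a called gene (0.000759). These reads are reconstructed and are not a deposited unit. Near-identical copies were searched with blastn 2.17.0 (at least 90% identity over 200 bases of the longest open reading frame), exon lengths came from GENCODE M21, and figures from matplotlib 3.10.9 and pandas 2.3.3. A test of counts with edgeR had been named as the main test in case the file held counts, which it did not.

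The members and the companion and marker lists were chosen with earlier results of these data known. Named companion genes are those called and, in each of 6 groups, the 2 uncalled genes with the largest mean and the uncalled gene with the smallest p. Keap1, Cul3, Bach1, Mafk, Txnip, Osgin1, Cx3cr1, P2ry12, Pdgfrb, Rgs5, Kcnj8, Slc2a1 and Cldn5 fall outside this rule and were chosen after their values were seen. Other settings tried were adjustment over other gene sets, a threshold of 0.1, a fold of 1.5, centring on median fold changes, and means of log2 normalized counts with pseudocounts of 1 and 10.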

Additional observations from a re-analysis of the deposited data

How the results depend on the processing

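The count of called members was 0 under every other adjustment, threshold and null tried and in the refits without each library. Most signs held, but several small fold changes reversed. In the ratio of mean normalized counts, the log2 value of Nfe2l2 was 0.196 without stroke library 1. Without the deeper sham library it was -0.131 for Gclc, -0.042 for Gclm, -0.226 for Gsr and 0.015 for Prdx1. Without the shallower sham library it was 0.351 for Gclc, 0.286 for Gsr and 0.714 for Prdx1. Without stroke library 3 it was -0.084 for Gclm and -0.076 for Gsr. Centred on the median of genes with a mean of at least 132 normalized counts, the deposited value of Gsr was -0.015. Over all members these ratios ran from -0.678 for Nqo1 to 1.040 for Slc7a11, and their median from -0.013 to 0.318. The count of called companion genes was 3 and became 1 (Ftl1) with adjustment over every gene with a p-value or over genes with such a mean, and 0 against a fold of 1.5. It was 4 at an adjusted p below 0.1, with Maff added. In the refits it was 1 (Ftl1) without stroke library 3 and 2 without each of the other stroke libraries. Fewer libraries widen the standard error, so a call can end there with no smaller fold change. Refits without a sham library leave 1 sham library, so no count of companion calls is given for them. Without the deeper sham library the refitted log2 fold changes of Gpx4 and Ftl1 fell to 0.655 and 1.13, and that of Chac1 rose to 1.52. The leave-out values for companion genes and the refits were chosen after seeing the data. The cause of these changes was not tested. No paired analysis was possible because the deposited table has no columns per library, and the recovered libraries carry no replicate numbers. Every member had 70 reads or more in each library, and what set the width of the intervals was not tested.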

Other observations

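Osgin1, an oxidative stress response gene and known NRF2 target, had normalized counts of 11.2, 28.3 and 70.8 in stroke libraries 1, 2 and 3, against 19.1 and 12.3 in the deeper and the shallower sham. Stroke library 3 was the highest and stroke library 1 the lowest of all 5, the same order of stroke libraries as for Nfe2l2, Slc7a11 and Hmox1. Its log2 fold change was 1.22 (standard error 0.88, adjusted p-value 0.744 in the DESeq2 Wald test) in the authors' deposited table. Bach1, a repressor that competes with NRF2 for its binding sites and is released by heme, had 551, 614 and 654 in stroke, against 372 and 496 in sham, with all stroke libraries above both sham libraries, as in 17 of 98 companion genes. Its log2 fold change was 0.485 (standard error 0.25, adjusted p-value 0.488) according to the authors' deposited table. Mafk, another small MAF gene, had 676, 522 and 327 in stroke libraries 1, 2 and 3, the reverse of the order of Nfe2l2, compared with 336 (deeper) and 317 (shallower) in sham, so stroke library 3 lay between the sham libraries. These genes were chosen after their values were seen.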
